A study of Mus musculus with 13 samples.

Results

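The effect of genotype that 2 diets share was measured in the mouse duodenum, where the small intestine begins. The comparison set 5 mutant arrays against 4 wild-type arrays, with diet as an additive term. These are the 9 arrays without butyrate of the 13 in the series, and they were chosen by their labels alone. Wild-type mice (titled CO) and mutant mice (titled ViRas) shared a mixed strain background. They went on a normal diet (ND) or a high-fat diet (HFD) when 5 weeks old and were sacrificed 22 weeks later. On normal diet there were 2 wild-type and 3 mutant arrays, and on high-fat diet 2 of each. The remaining 4 arrays, 1 wild-type and 3 mutant, came from mice on high-fat diet with butyrate. The labels give no promoter or cell type that drives the mutation. Every array holds RNA of whole duodenum, so fewer cells of a type and less RNA per cell cannot be told apart. Levels are deposited log2 intensities, for 12393 genes with 1 probe set each. A difference is mutant minus wild type on that scale, so that 1 is a 2-fold difference, with its standard error (SE). Genes past an adjusted p of 0.05 (limma, Benjamini-Hochberg over all 12393 genes) are said to have risen or fallen in mutants.

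The duodenal wall is lined by absorptive enterocytes, which carry digestive enzymes and nutrient transporters on their brush border. Paneth cells at the base of the crypts secrete antimicrobial proteins. Macrophages, dendritic cells and lymphocytes lie beneath and between the epithelial cells. Interferons induce antiviral proteins and large GTPases in most cell types, and interferon gamma also induces major histocompatibility complex (MHC) class II, which presents peptides to T cells. Signalling through Ras and the kinase ERK is limited by feedback inhibitors that ERK itself induces.

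Defining genes of the tissue were high on all 13 arrays. Vil1, which encodes the brush border protein villin, lay between 11.83 and 12.32, and Fabp1, the fatty acid binding protein of enterocytes, between 13.53 and 13.78. Xist lay between 10.51 and 11.87 and the Y-linked gene Uty between 2.89 and 3.42, so sex did not differ between the groups by these genes. The mean level of 18 genes of acinar pancreas ran from 6.43 to 12.74 over the 13 arrays, and that of 15 genes of stomach and Brunner glands from 5.69 to 9.40. Both ranges were wide within each genotype over the 2 diets, and no gene of either list was called in the comparison. Within a single diet the genotypes could lie apart. On normal diet the stomach and Brunner gland mean was 5.94 and 5.95 in wild type and 8.945, 6.23 and 8.06 in mutants. On high-fat diet the acinar mean was 11.03 and 12.59 in wild type and 10.3 and 6.43 in mutants. The mutant arrays with butyrate did not look alike. Of the 278 genes that rose in the comparison without butyrate, mutant butyrate array 2 was above all 4 wild-type arrays without butyrate for 225, mutant arrays 1 and 3 for 107 and 112, and the wild-type butyrate array for 113. Of the 296 that fell, mutant butyrate array 2 was below those 4 arrays for 252, arrays 1 and 3 for 72 and 80, and the wild-type array for 78. Thus the arrays labelled mutant butyrate 1 and 3 held counts close to those of the wild-type butyrate array. None of these 4 arrays entered the comparison.

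Over both diets, 574 of 12393 genes were called (4.63%). Of these, 278 rose (2.24%) and 296 fell (2.39%). Counts of called members of a gene list are to be read beside these shares. The lists were chosen with earlier results of these data known, so such counts describe the calls and do not test them. An unadjusted p under 0.05 was reached by 2280 genes (18.4%). The rises were modest, with a median log2 difference of 0.48 and a range from 0.25 to 3.05. The falls had a median of -0.69 and ran from -0.26 to -3.13. Differences of at least 2-fold were found for 22 genes that rose and 53 that fell. The median difference over all 12393 genes was 0.01. Just inside the threshold, Igtp, Uhrf1bp1l, Pgm1 and Cxcr3 had adjusted p from 0.0498 to 0.0499, and just outside it Ms4a6c, Adipor1, Gcc1 and Nkx2-2 had 0.05001 to 0.05024.

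Leaving out 1 array at a time left between 265 and 582 genes called. The count moved by over 1.5 times without high-fat arrays 1 (286) or 2 (347) of wild type, mutant high-fat array 2 (281), or mutant normal-diet array 1 (265), 2 (292) or 3 (277). Of the 574 genes, 211 were called in all 9 of these fits. Of the 128 called genes named by rule, 73 were called in all 9. The other 55 lost their call in at least 1 of the fits. Their adjusted p in the comparison was at least 0.0167, and that of the 73 at most 0.0171. The following holds for called genes named in the text before the runs of neighbouring genes. Spred1, Slc5a1, Cyp3a13, Cxcr3, Pgm1 and Uhrf1bp1l were called in 0 of the 9 fits (limma). Their unadjusted p was at most 0.00877 in each fit. Those called in 1 were Etv5, Anxa7, S100a14, Pgk1, Acads, Acaa2, Ppargc1a, Akp3, Khk, Sema5a, Cd79b, Kit, Mmp2 and Shh. Those called in 2 were Etv4, S100a1, S100a6, Cldn15, Egln3, Fdps, Acot1, Slc23a1, Slc3a2, Ifit3, Oasl2, Gbp3, Gzma, Tgfb1, Tgfbr2 and Hsp90b1. Those called in 3 were Fdft1, Fads2, Plin2, Cybrd1, Ireb2, Creb3l3, Slc2a2, Dpp4, Xpnpep2, Cyp2s1, Igtp, Psmb8 and Bmpr1a. Other calls held in 4 to 7 fits. Among these were Foxq1 and Cyp2b10 (4), and Mboat1, Krt18, Insig2, Scap, Csf1r, Creld2, Notch1 and Mmp10 (5). So were Tifa, Elovl5, Elovl6 and Mmp13 (6), and Lss, Tfrc and Mep1a (7). Abca1, Mvk and Pfkfb3 were called in 8. Of the genes named only with the runs of neighbouring genes, Gpsm3 was called in 1 and Gbp2b in 8. With all 13 arrays, butyrate included, 127 genes were called (limma), and no member of 9 lists was. An unadjusted p under 0.05 was reached there by 9 of 10 MHC class II, 6 of 11 Paneth cell, 12 of 30 T cell, 13 of 18 cholesterol, 9 of 20 transporter, 4 of 12 brush border, 7 of 22 fatty acid synthesis, 4 of 15 iron and 11 of 41 Wnt, Notch, Hedgehog and BMP genes.

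All 574 called genes had the same sign in each diet. For 556 of them the mutant and wild-type arrays did not overlap within either diet, as was so for 1645 of all genes (13.3%). These were 272 rises and 284 falls, and over all genes 7.46% lay apart in this way with mutants higher and 5.82% with mutants lower. For 345, all 5 mutant arrays lay apart from all 4 wild-type arrays, against 636 of all genes (5.13%). The sign and the lack of overlap come from the arrays that the call itself used, so they describe the calls. Lack of overlap within each diet was also required of the 20 largest rises and the 20 largest falls named below. Where it is stated for 1 of those genes, it repeats that choice. A check on separate arrays used the 5 normal-diet arrays alone, which called 36 genes (0.290%), 16 higher and 20 lower in mutants. They included Anxa10 of the stomach list, whose mean level was higher in mutants on these 5 arrays. All 36 had the same direction on the 4 high-fat arrays, as did 60.1% of all genes. The 16 had a median difference of 1.24 with normal diet against 1.12 with high-fat diet, and the 20 had medians of -1.38 and -1.12. The high-fat arrays alone called 5 genes (0.0403%), namely H2-Aa, Reg3a, Tm4sf4, Myo7a and St3gal4. Fitted with 4 group means over the 9 arrays, 100 genes were called for normal diet (0.807%) and 106 for high-fat diet (0.855%). Across all genes the differences on the 2 diets had a Pearson correlation of 0.25. Genes are not independent, and each diet's arrays share one array series.

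**Figure D1:**
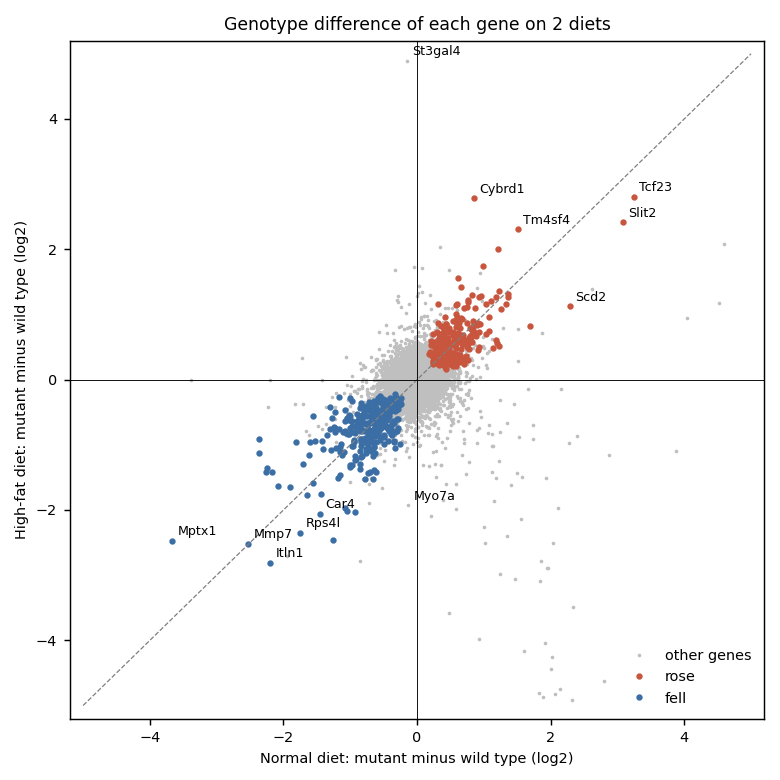
Mutant minus wild-type difference (log2) of each of 12393 genes, normal diet on the x axis and high-fat diet on the y axis, with the 278 genes that rose over both diets in red, the 296 that fell in blue and the others in grey. The dashed line marks equal differences, the called genes lie in the upper right and lower left, and St3gal4 and Myo7a lie near 0 on the normal-diet axis only.

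A difference between the diets in the genotype effect itself was called for 2 genes (0.0161%), the sialyltransferase gene St3gal4 and the unconventional myosin gene Myo7a. An unadjusted p under 0.05 for that interaction was reached by 628 genes (5.07%). For Tcf23 the high-fat difference minus the normal-diet one was -0.44, with a 95% interval from -1.40 to 0.53. For Lamb3 it was -0.17 (interval -0.66 to 0.31), and for Mmp7 0.02 (-1.31 to 1.35). For Slit2 it was -0.66 (-1.24 to -0.08), with an unadjusted p of 0.0301 and an adjusted p of 0.885. For Cybrd1 it was 1.93 (0.61 to 3.26), which had an unadjusted p of 0.00905 and an adjusted p of 0.885. These intervals allow effects of quite different size on the 2 diets.

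The 2 rises that led the list were a transcription factor and a secreted guidance cue. Tcf23, a basic helix-loop-helix factor, measured 4.60 and 4.57 in wild type and 8.06, 7.59 and 7.84 in mutants on normal diet, and 5.76 and 4.62 in wild type and 7.86 and 8.14 in mutants on high-fat diet. Slit2, the ligand of Robo receptors, measured 5.12 and 5.24 in wild type and 8.21, 8.24 and 8.32 in mutants on normal diet, and 5.02 and 4.67 in wild type and 7.0 and 7.53 in mutants on high-fat diet. The mutant arrays lay above all wild-type arrays for both genes. Tcf23 was 8.26-fold higher in mutants (a log2 difference of 3.05 ± 0.21 (SE), adjusted p = 0.000138), and Slit2 6.86-fold higher (a log2 difference of 2.78 ± 0.16 (SE), adjusted p = 7.23e-05). Of the other 23 basic helix-loop-helix genes measured, none rose, while Ascl2 (-0.90 ± 0.14, adjusted p = 0.00967) and Tcf21 (-0.80 ± 0.11, adjusted p = 0.00449) fell. Of the other 29 guidance cues and receptors, none rose and Sema5a fell (-0.65 ± 0.15, adjusted p = 0.0382). The Sema5a call held in the fit without wild-type normal-diet array 2 and in none of the other 8 that each left out 1 array.

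Tm4sf4, a tetraspan membrane protein of the gut epithelium, was high in every sample. It measured 11.37 and 10.30 in wild type and 12.35, 12.36 and 12.31 in mutants on normal diet, and 10.50 and 10.15 in wild type and 12.65 and 12.62 in mutants on high-fat diet. The mutant arrays again lay above all wild-type arrays, by a log2 difference of 1.87 ± 0.22 (SE), adjusted p = 0.00252. Capg, which caps actin filaments, measured 7.51 and 7.89 in wild type and 8.84, 8.64 and 9.25 in mutants on normal diet, and 7.76 and 7.34 in wild type and 9.67 and 9.44 in mutants on high-fat diet. Its groups did not overlap, and it rose by 1.57 ± 0.19, adjusted p = 0.00293. Rflnb, a filamin-binding protein that organises actin, rose by 1.23 ± 0.09, adjusted p = 0.000138. Btbd3, a BTB domain protein, rose by 1.34 ± 0.11, adjusted p = 0.000285. Further rises of about 2-fold were those of the homeobox factors Meis2 (1.11 ± 0.17, adjusted p = 0.00689) and Hoxa5 (1.09 ± 0.11, adjusted p = 0.00153), of the bile acid responsive nuclear receptor Nr0b2 (1.08 ± 0.20, adjusted p = 0.0157) and of the adhesion receptor Adgrv1 (1.04 ± 0.17, adjusted p = 0.00992). Prl6a1, of the prolactin family, rose by 1.18 ± 0.09 but was dim, between 2.78 and 4.20 on the 9 arrays. Nipal2, a magnesium transporter-like gene, rose by 1.02 ± 0.15. Foxq1, a forkhead factor, rose by 1.01 ± 0.22, adjusted p = 0.0321, and its call held in 4 of the 9 fits that each left out 1 array (highest adjusted p = 0.0893), the highest without mutant high-fat array 2.

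**Figure D2:**
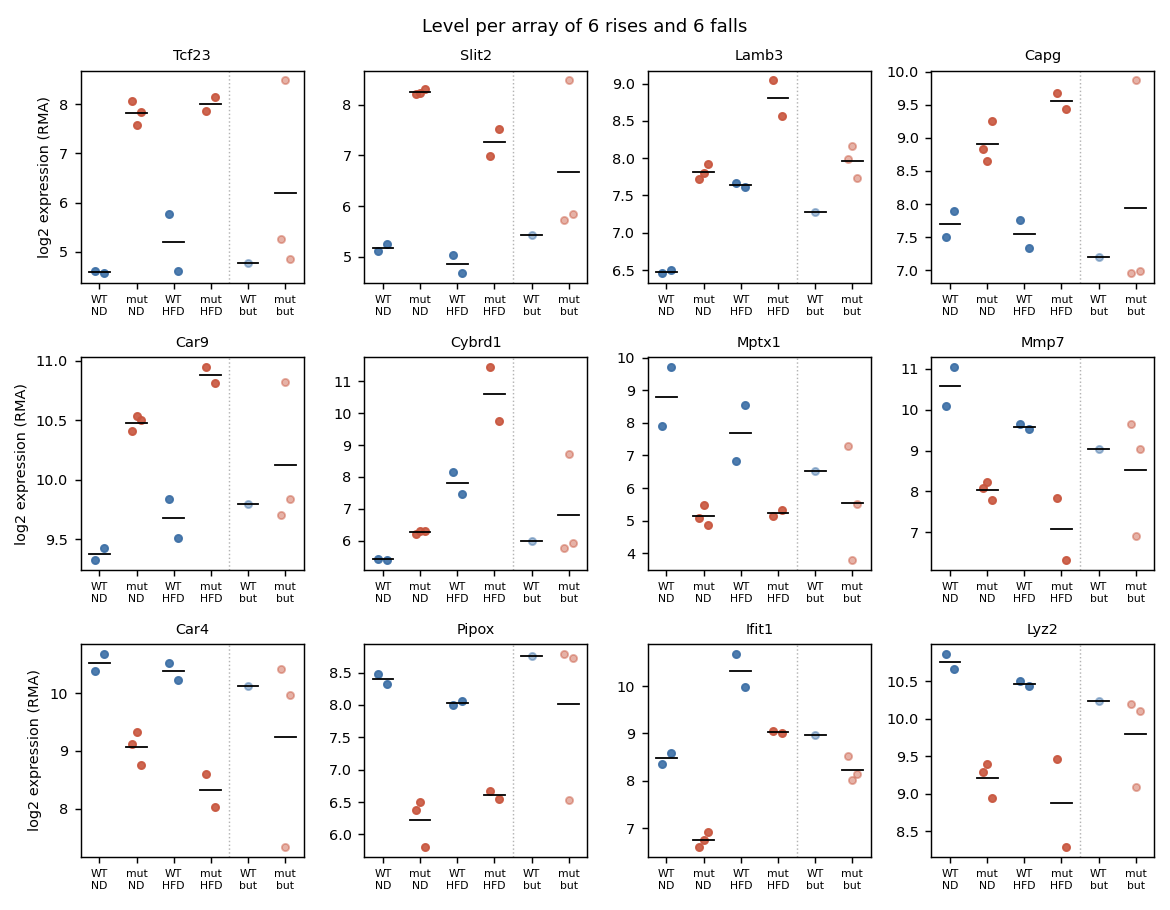
Level (log2 RMA, y axes starting above 0) of 6 genes that rose and 6 that fell, with 1 point per array, wild type (WT) in blue, mutant (mut) in red and the mean of each group as a black line. To the left of the dotted line are the 9 arrays of the comparison, on normal diet (ND) and high-fat diet (HFD). Mutant and wild-type arrays do not overlap within a diet there, which the choice of these genes required. To the right of the line are the 4 butyrate (but) arrays, where 1 of the 3 mutant arrays, array 2, stands apart for most of these genes.

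Among genes of epithelial adhesion, few rose. Lamb3, the beta chain of laminin-332 that anchors epithelium to its basement membrane, measured 6.46 and 6.50 in wild type and 7.72, 7.80 and 7.93 in mutants on normal diet, and 7.66 and 7.62 in wild type and 9.05 and 8.56 in mutants on high-fat diet. Within each diet the mutants were higher, while wild type on high-fat diet came close to mutants on normal diet. The difference was 1.26 ± 0.11, adjusted p = 0.000434. Of 28 laminin-332 and epithelial adhesion genes, 2 rose, Lamb3 and the desmosomal plakophilin Pkp3 (0.46 ± 0.07, adjusted p = 0.00909), and 1 fell, the tight junction protein Cldn15 (-0.30, adjusted p = 0.0289). The list's median difference was 0.12, against 0.01 over all genes. Of 6 keratins, Krt18 rose (0.56 ± 0.11, adjusted p = 0.0233).

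Of 18 S100 and annexin genes, 7 rose and none fell, and the median difference was 0.33. S100 proteins are small calcium sensors and annexins bind membranes in the presence of calcium. S100a6 measured 8.63 and 8.72 in wild type and 10.43, 10.28 and 10.40 in mutants on normal diet, and 9.69 and 8.20 in wild type and 10.09 and 9.46 in mutants on high-fat diet. The groups lay apart on normal diet, whereas wild-type high-fat array 1 was above mutant high-fat array 2. It rose by 1.30 ± 0.28, adjusted p = 0.0312, and the call held in 2 of the 9 fits that each left out 1 array (highest adjusted p = 0.0812), the highest without wild-type normal-diet array 1. S100a16 measured 8.43 and 8.81 in wild type and 9.47, 9.49 and 9.68 in mutants on normal diet, and 8.78 and 8.51 in wild type and 9.17 and 9.14 in mutants on high-fat diet. All of its mutant arrays were above all wild-type arrays, by 0.74 ± 0.12, adjusted p = 0.00847. Anxa13, an annexin of the intestine, rose by 0.69 ± 0.10, adjusted p = 0.00535, S100a13 by 0.50 ± 0.09, S100a14 by 0.91 ± 0.21, S100a1 by 0.41 ± 0.10 and Anxa7 by 0.36 ± 0.08. S100a4, which marks many non-epithelial cells, had a difference of -0.30 ± 0.17 (adjusted p = 0.411). Anxa10, which the stomach expresses, had the largest difference of the list, 3.45 ± 1.1, but its 2 wild-type high-fat arrays measured 10.09 and 3.58, and its adjusted p was 0.111. With 1 array left out the number that rose ran from 3 to 6. It was 3 without mutant high-fat array 1, without wild-type normal-diet array 1 and without any 1 mutant normal-diet array, and 4 without wild-type array 2 of either diet.

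Glycolytic and hypoxia-responsive genes rose in part. Of 21 measured, 6 rose and 1 fell, with a median difference of 0.26. Car9, a carbonic anhydrase that hypoxia induces, measured 9.32 and 9.42 in wild type and 10.41, 10.53 and 10.50 in mutants on normal diet, and 9.84 and 9.51 in wild type and 10.95 and 10.81 in mutants on high-fat diet. Mutant arrays lay above all wild-type arrays, and the difference was 1.15 ± 0.08, adjusted p = 0.000138. The aldolase Aldoc measured 8.27 and 7.66 in wild type and 9.16, 9.13 and 9.30 in mutants on normal diet, and 8.53 and 7.71 in wild type and 9.64 and 9.33 in mutants on high-fat diet. It was also above every wild-type array in every mutant, by 1.29 ± 0.17, adjusted p = 0.00432. The glycolytic enzymes Pfkl (0.80 ± 0.11), Aldoa (0.50 ± 0.06) and Pgk1 (0.30 ± 0.07) and the oxygen-dependent prolyl hydroxylase Egln3 (0.79 ± 0.17) rose too. Pfkfb3, which makes the activator of phosphofructokinase, fell by 1.05 on the log2 scale (adjusted p = 0.0171). Other hypoxia targets did not pass, among them Vegfa (0.09 ± 0.13), Slc2a1 (0.63 ± 0.18) and Adm (0.64 ± 0.30). With 1 array left out, 4 to 6 of the 21 rose, and none fell without wild-type high-fat array 1. Pgk1 kept its call in 1 of the 9 fits that each left out 1 array (highest adjusted p = 0.0916), the highest without wild-type high-fat array 1.

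Some lipid and sterol genes rose. Of 18 cholesterol synthesis enzymes, 5 rose and none fell, 17 of the 18 had positive differences, and the median was 0.59. Mvd, which makes isopentenyl diphosphate, measured 6.05 and 6.44 in wild type and 6.98, 7.19 and 6.94 in mutants on normal diet, and 6.30 and 6.25 in wild type and 6.94 and 6.94 in mutants on high-fat diet. The mutant arrays lay above all wild-type arrays, by 0.74 ± 0.10, adjusted p = 0.0052. Mvk (0.75 ± 0.14), Fdps (0.91 ± 0.19), Fdft1 (0.97 ± 0.20) and Lss (0.60 ± 0.12), of the same pathway, rose as well. The count depended on single arrays. It was 12 without wild-type normal-diet array 2, 1 without mutant high-fat array 2, 2 without mutant normal-diet array 3, and 3 without mutant high-fat array 1, wild-type normal-diet array 1, or mutant normal-diet array 1 or 2. Among regulators of sterols, Scap (0.46 ± 0.09) and Insig2 (0.49 ± 0.09), partners in sterol sensing, rose, and the cholesterol exporter Abca1 fell (-1.16 ± 0.22, adjusted p = 0.0168).

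Scd2, a fatty acid desaturase, measured 5.23 and 6.50 in wild type and 8.22, 7.93 and 8.32 in mutants on normal diet, and 6.88 and 5.70 in wild type and 7.46 and 7.38 in mutants on high-fat diet. The groups did not overlap within either diet, and the rise was 1.76 ± 0.33, adjusted p = 0.0167. Of 22 genes of fatty acid synthesis and desaturation, Elovl6 (0.50 ± 0.10), Fads2 (0.55 ± 0.12) and the acyltransferase Mboat1 (1.32 ± 0.27) rose besides Scd2, and Elovl5 fell (-0.46 ± 0.09). The Mboat1 call held in 5 of the 9 fits that each left out 1 array (highest adjusted p = 0.0635), the highest without mutant normal-diet array 1. Without 1 array 2 to 4 of the 22 rose, and 2 did so without array 2 of wild type on high-fat diet, mutant high-fat array 1, wild-type normal-diet array 1, or mutant normal-diet array 1 or 2. None fell without array 2 of either genotype on high-fat diet or mutant normal-diet array 3. Of 22 genes of fatty acid oxidation, 5 rose. They were Cpt1a, which admits fatty acids to mitochondria (0.54 ± 0.08, adjusted p = 0.00619), Acads (0.29 ± 0.07), Acaa2 (0.30 ± 0.07), the thioesterase Acot1 (0.57 ± 0.14) and the lipid droplet protein Plin2 (0.38 ± 0.09). The coactivator Ppargc1a fell (-0.39 ± 0.09, adjusted p = 0.0384). The number that rose was between 1 and 4 when 1 array was left out. It was 1 without array 1 of wild type on high-fat diet, either mutant high-fat array, or mutant normal-diet array 1 or 2. It was 2 without wild-type high-fat array 2 or mutant normal-diet array 3, and 3 without wild-type normal-diet array 2. None of 17 genes of chylomicron assembly and fat uptake passed (median 0.09).

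Cybrd1, the ferric reductase of the duodenal brush border, measured 5.45 and 5.40 in wild type and 6.21, 6.30 and 6.32 in mutants on normal diet, and 8.17 and 7.47 in wild type and 11.44 and 9.76 in mutants on high-fat diet. Its level was far higher on high-fat arrays in both genotypes, where diet also carries the array series, and mutants were above wild type within each diet. It rose by 1.73 ± 0.41, adjusted p = 0.0415, and the call held in 3 of the 9 fits that each left out 1 array (highest adjusted p = 0.102), the highest without wild-type high-fat array 1. Of 15 iron genes, the transferrin receptor Tfrc (0.66 ± 0.13, adjusted p = 0.0191) and the iron sensor Ireb2 (0.60 ± 0.12, adjusted p = 0.0228) also rose, whereas the iron importer Slc11a2 (0.60 ± 0.29) and exporter Slc40a1 (0.43 ± 0.28) did not pass. Without 1 array, 1 to 3 iron genes rose, and 1 did so without either of the wild-type arrays on high-fat diet, mutant high-fat array 2 or any 1 mutant normal-diet array. Without wild-type normal-diet array 2, 2 iron genes fell beside 2 that rose. Akp3, an intestinal alkaline phosphatase, measured 11.18 and 9.45 in wild type and 10.98, 11.29 and 11.64 in mutants on normal diet, and 11.85 and 11.45 in wild type and 13.53 and 13.23 in mutants on high-fat diet. On normal diet wild-type array 1 overlapped the mutants. It rose by 1.33 ± 0.31, adjusted p = 0.0408, and held its call in 1 of the 9 fits that each left out 1 array (highest adjusted p = 0.103), the highest without mutant high-fat array 2.

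Of 18 ERK feedback genes and ETS targets, 4 rose and none fell (median 0.18). Spred2, an inhibitor of Ras signalling, measured 7.44 and 7.66 in wild type and 8.18, 8.28 and 7.95 in mutants on normal diet, and 7.66 and 7.94 in wild type and 8.80 and 8.83 in mutants on high-fat diet. Mutants lay above all wild-type arrays, by 0.78 ± 0.12, adjusted p = 0.00689. The ETS factors Etv4 (0.62 ± 0.13) and Etv5 (0.66 ± 0.14) and Spred1 (0.48 ± 0.11) rose, while Dusp6 (0.69 ± 0.19, adjusted p = 0.0742) and Spry2 (0.61 ± 0.18, adjusted p = 0.0806) did not pass. Without 1 array, 1 to 3 of the 18 rose, and 1 or 2 did so without either high-fat array of either genotype or any 1 mutant normal-diet array, while 1 fell without either wild-type normal-diet array. Errfi1, a feedback inhibitor of the epidermal growth factor receptor, measured 9.65 and 9.31 in wild type and 9.93, 10.13 and 10.21 in mutants on normal diet, and 9.14 and 8.69 in wild type and 10.35 and 10.60 in mutants on high-fat diet. It was higher in mutants within each diet and rose by 1.04 ± 0.19, adjusted p = 0.015, the one call among 11 ligands and receptors of that family and their inhibitor. Of 28 genes of the Ras and MAP kinase core, 1 was called, against 4.63% of all genes. This was Rras, which rose (0.74 ± 0.14, adjusted p = 0.0171). Of 21 transcription factors of intestinal identity, Nr0b2, Pparg (0.86 ± 0.15, adjusted p = 0.0129) and Creb3l3 (0.29 ± 0.06, adjusted p = 0.0321) rose, and Cdx1 (0.02 ± 0.11), Cdx2 (0.01 ± 0.21) and Hnf4a (0.21 ± 0.08) did not pass. Creb3l3 held its call in 3 of the 9 fits that each left out 1 array (highest adjusted p = 0.0893), the highest without mutant high-fat array 2.

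The largest falls were products of Paneth cells. Mptx1, a mucosal pentraxin, measured 7.91 and 9.71 in wild type and 5.08, 5.47 and 4.87 in mutants on normal diet, and 6.84 and 8.56 in wild type and 5.13 and 5.33 in mutants on high-fat diet. Mmp7, the protease that activates defensins, measured 10.10 and 11.04 in wild type and 8.09, 8.23 and 7.80 in mutants on normal diet, and 9.66 and 9.52 in wild type and 7.83 and 6.32 in mutants on high-fat diet. Itln1, an intelectin that binds microbial sugars, measured 12.60 and 12.62 in wild type and 10.48, 10.72 and 10.02 in mutants on normal diet, and 12.20 and 12.15 in wild type and 10.47 and 8.26 in mutants on high-fat diet. For these 3 genes every mutant array was below every wild-type array. Mptx1 was 8.73-fold lower in mutants (a log2 difference of -3.13 ± 0.43 (SE), adjusted p = 0.00473), Mmp7 5.76-fold (-2.53 ± 0.28, adjusted p = 0.00202) and Itln1 5.57-fold (-2.48 ± 0.36, adjusted p = 0.00606). Of 11 Paneth cell genes measured, 5 fell and none rose, with a median of -0.76. The other 2 that fell were the phospholipase Pla2g2a (-1.80 ± 0.28, adjusted p = 0.00848) and the lysozyme Lyz1 (-1.29 ± 0.27, adjusted p = 0.0262). The factor Sox9, which Paneth and crypt cells share, had a difference of -0.10 ± 0.17 (adjusted p = 0.825), and Defa3 one of -0.08 ± 0.15. The mean level of the 11 genes measured 8.88 and 9.78 in wild type and 8.27, 8.15 and 8.18 in mutants on normal diet, and 8.80 and 9.01 in wild type and 8.09 and 7.09 in mutants on high-fat diet. All mutant arrays were below all wild-type arrays, and mutant high-fat array 2 was the lowest. The number that fell was 4 or 5 without any 1 array, and the median was -0.49 without mutant high-fat array 2, and -1.34 and -1.23 without wild-type normal-diet array 1 and mutant normal-diet array 3. With all 13 arrays none was called (limma), 6 of the 11 had an unadjusted p under 0.05, and the median was -0.81. Reg3a, an antimicrobial lectin, fell by 1.49 (adjusted p = 0.0118). Of 20 enteroendocrine genes, 18 had negative differences and none passed (median -0.25).

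Several genes of absorptive cells fell. Car4, a carbonic anhydrase on the cell surface, measured 10.38 and 10.68 in wild type and 9.12, 9.33 and 8.75 in mutants on normal diet, and 10.53 and 10.22 in wild type and 8.60 and 8.03 in mutants on high-fat diet. Every mutant array was below every wild-type array, by a log2 difference of -1.73 ± 0.18 (SE), adjusted p = 0.00136. Of 12 carbonic anhydrases, Car4 fell and Car9 rose. Pipox, a peroxisomal oxidase of pipecolic acid, measured 8.47 and 8.32 in wild type and 6.38, 6.50 and 5.81 in mutants on normal diet, and 8.0 and 8.06 in wild type and 6.68 and 6.55 in mutants on high-fat diet. Its groups lay apart as well (-1.83 ± 0.18, adjusted p = 0.00106). Among 20 nutrient transporters and sugar enzymes, 6 fell and none rose, with a median of 0.04. They were the vitamin C transporter Slc23a1 (-0.99 ± 0.21), the glutamate transporter Slc1a1 (-0.83 ± 0.12, adjusted p = 0.0052), the glucose transporters Slc2a2 (-0.59 ± 0.13) and Slc5a1 (-0.29 ± 0.07), the amino acid transporter chain Slc3a2 (-0.36 ± 0.08) and ketohexokinase Khk (-0.32 ± 0.08). Of these, Slc1a1 was the one of the 4 named by rule that kept its call without any 1 array, and the count ran from 1 to 4. It was 1 without array 1 of wild type on high-fat diet, mutant high-fat array 2, wild-type normal-diet array 1 or mutant normal-diet array 1 or 3, and 2 without the other array of either genotype on high-fat diet.

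Of 12 brush border hydrolases, 4 fell (median -0.31). Enpep, an aminopeptidase, measured 12.75 and 12.65 in wild type and 12.21, 12.29 and 12.19 in mutants on normal diet, and 12.81 and 12.68 in wild type and 12.19 and 12.33 in mutants on high-fat diet. Mutants were below wild type on both diets, by -0.48 ± 0.06, adjusted p = 0.00342. Mep1a (-0.73 ± 0.14), Dpp4 (-0.46 ± 0.10) and Xpnpep2 (-0.82 ± 0.17), further peptidases, fell too. The count was 1 without array 2 of either genotype on high-fat diet, and 2 without wild-type normal-diet array 1 or mutant normal-diet array 1 or 3. Among 27 cytochrome P450 and related genes, 4 fell and 2 rose. The falls were those of Akr1c14, a steroid dehydrogenase (-1.48 ± 0.22, adjusted p = 0.00611), Fmo1 (-1.12 ± 0.15, adjusted p = 0.00433), Cyp4f14 (-0.52 ± 0.07, adjusted p = 0.00432) and Cyp2b10 (-0.79 ± 0.17, adjusted p = 0.0279), and the rises those of Cyp2s1 (0.69 ± 0.15) and Cyp3a13 (0.28 ± 0.07). Without 1 array 3 to 6 fell, 6 without wild-type normal-diet array 2, and 0 or 1 rose, 0 without either array of wild type on high-fat diet or any 1 mutant normal-diet array.

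**Figure D3:**
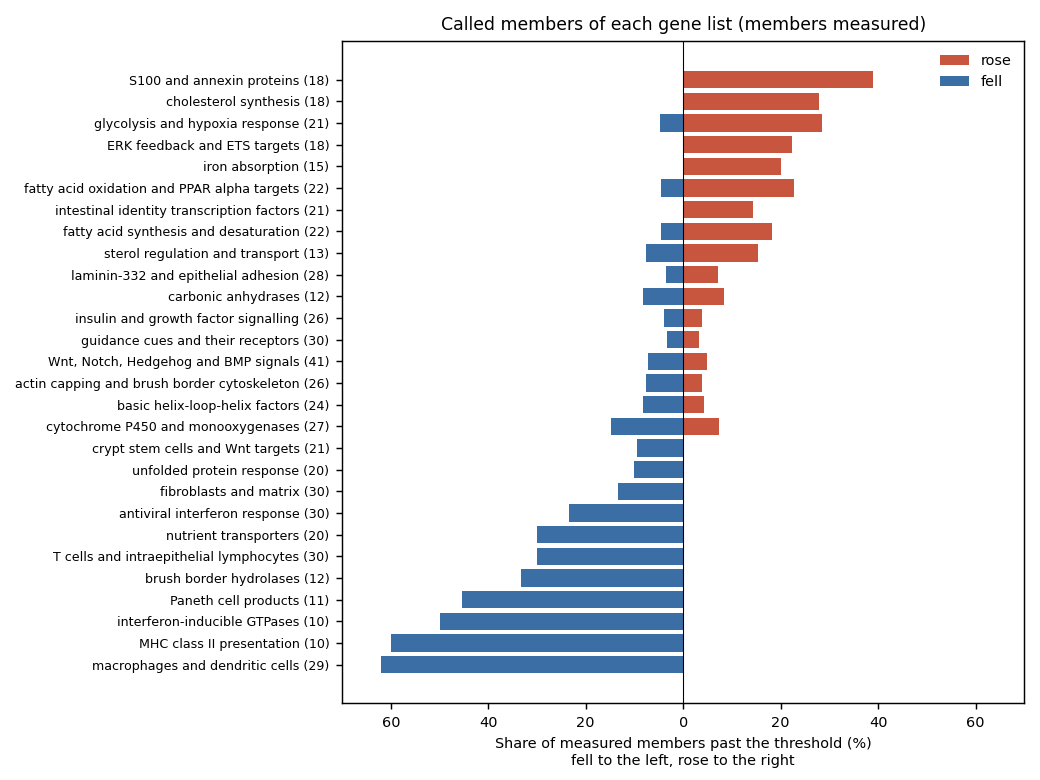
Share of the measured members (%) of each of 28 gene lists, those with at least 2 called members, that rose (red, to the right) or fell (blue, to the left) in mutants over both diets, with the number of members measured in parentheses. The S100 and annexin list (7 of 18) and the cholesterol list (5 of 18) point to the right, and macrophage (18 of 29), MHC class II (6 of 10), GTPase (5 of 10) and Paneth cell (5 of 11) lists to the left.

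Some interferon-induced genes fell in mutants, 7 of 30 antiviral genes and 5 of 10 GTPases, and none rose. Ifit1, an antiviral protein that binds foreign RNA, measured 8.37 and 8.59 in wild type and 6.61, 6.76 and 6.92 in mutants on normal diet, and 10.68 and 9.98 in wild type and 9.06 and 9.02 in mutants on high-fat diet. Mutants were lower within each diet, and all 4 high-fat arrays were above all 5 normal-diet arrays. Ifit1 was 2.87-fold lower (a log2 difference of -1.52 ± 0.15 (SE), adjusted p = 0.00106). The antiviral list had a median difference of -0.53. Its falls were those of Ifit1, Usp18 (-1.31 ± 0.29), Cmpk2 (-1.07 ± 0.18, adjusted p = 0.0121), Oasl2 (-0.90 ± 0.20), Ifit3 (-0.87 ± 0.20), Trim30a (-0.85 ± 0.15, adjusted p = 0.014) and Bst2 (-0.78 ± 0.09, adjusted p = 0.00304), the last a protein that tethers budding virus to the cell. The signal transducers of the response did not pass, with Stat2 at -0.18 ± 0.18, Irf9 at -0.18 ± 0.12 and Irf7 at -0.08 ± 0.14. All 10 interferon-inducible GTPases had negative differences, with a median of -1.13 that was -0.67 without wild-type normal-diet array 2. Ifi47 measured 8.60 and 9.93 in wild type and 6.98, 7.06 and 7.03 in mutants on normal diet, and 8.90 and 8.57 in wild type and 7.48 and 7.29 in mutants on high-fat diet. Its mutants lay below all wild-type arrays (-1.84 ± 0.26, adjusted p = 0.00497). Igtp (-1.70 ± 0.42, adjusted p = 0.0498), Gbp8 (-1.20 ± 0.16, adjusted p = 0.00418), Gbp7 (-0.88 ± 0.15, adjusted p = 0.0122) and Gbp3 (-0.83 ± 0.17, adjusted p = 0.0279) fell too, and the Igtp call held in 3 of the 9 fits that each left out 1 array (highest adjusted p = 0.111), the highest without mutant normal-diet array 3. For the 10 GTPases the mean level measured 6.83 and 8.08 in wild type and 6.06, 5.89 and 5.89 in mutants on normal diet, and 7.07 and 6.79 in wild type and 6.19 and 6.18 in mutants on high-fat diet, so wild-type normal-diet array 2 was the highest and no mutant array reached a wild-type one. Without 1 array, 3 to 8 of the 10 fell. The number was 8 without wild-type normal-diet array 2, and 3 without array 1 of wild type on high-fat diet, either mutant high-fat array, or mutant normal-diet array 2 or 3. For the antiviral list it ran from 4, without mutant high-fat array 2 or any 1 mutant normal-diet array, to 10 without wild-type high-fat array 2.

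Promoters of these genes are shown because a short interferon motif was found in them. The core of the interferon-stimulated response element was searched as GAAANNGAAA on both strands of RefSeq promoters (250 bases before to 50 after each start, GRCm38.p6), where neighbouring matches may overlap each other. It was in 28 of 286 promoters of genes that fell (9.79%), in 3 of 325 of genes that rose (0.923%), in 394 of 12566 of all tested genes (3.14%), and in 1131 of all 32851 promoters (3.44%). Of 6 fallen antiviral genes with a promoter in the table, 4 held it, as did 3 of 4 fallen GTPases. Of all measured members with a promoter, 10 of 21 antiviral genes and 6 of 7 GTPases held it, so it was not limited to those that fell. A match is a description of the letters, not of binding. Capitals mark the matches, written 5′ to 3′ along the gene, in Ifit1 (chr19:34640639-34640938, plus strand), Ifit3 (chr19:34583279-34583578, plus strand), Bst2 (chr8:71537423-71537722, minus strand), Gbp3 (chr3:142559794-142560093, plus strand) and Igtp (chr11:58199306-58199605, plus strand).
Ifit1: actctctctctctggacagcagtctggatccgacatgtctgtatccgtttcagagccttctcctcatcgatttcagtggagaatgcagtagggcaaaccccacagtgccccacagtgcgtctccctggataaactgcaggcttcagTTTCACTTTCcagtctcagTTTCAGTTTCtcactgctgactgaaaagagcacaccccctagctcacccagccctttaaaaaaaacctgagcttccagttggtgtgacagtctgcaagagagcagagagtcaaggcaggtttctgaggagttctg
Ifit3: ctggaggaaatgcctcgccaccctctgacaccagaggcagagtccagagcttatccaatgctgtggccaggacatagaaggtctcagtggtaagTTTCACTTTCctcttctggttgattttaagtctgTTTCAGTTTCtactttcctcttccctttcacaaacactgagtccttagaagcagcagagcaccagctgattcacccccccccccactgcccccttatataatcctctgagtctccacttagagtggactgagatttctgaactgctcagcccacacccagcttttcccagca
Bst2: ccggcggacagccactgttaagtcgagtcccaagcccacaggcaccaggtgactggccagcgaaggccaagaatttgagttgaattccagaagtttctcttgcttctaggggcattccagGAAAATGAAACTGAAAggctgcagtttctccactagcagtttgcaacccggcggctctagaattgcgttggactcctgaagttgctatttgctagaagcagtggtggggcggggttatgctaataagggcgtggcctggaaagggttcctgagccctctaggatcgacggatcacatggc
Gbp3: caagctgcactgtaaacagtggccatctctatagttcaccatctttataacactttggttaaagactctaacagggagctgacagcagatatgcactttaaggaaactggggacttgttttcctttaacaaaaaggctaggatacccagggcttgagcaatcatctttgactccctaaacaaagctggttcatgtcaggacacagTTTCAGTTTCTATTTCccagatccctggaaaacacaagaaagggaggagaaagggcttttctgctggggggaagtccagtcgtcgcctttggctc
Igtp: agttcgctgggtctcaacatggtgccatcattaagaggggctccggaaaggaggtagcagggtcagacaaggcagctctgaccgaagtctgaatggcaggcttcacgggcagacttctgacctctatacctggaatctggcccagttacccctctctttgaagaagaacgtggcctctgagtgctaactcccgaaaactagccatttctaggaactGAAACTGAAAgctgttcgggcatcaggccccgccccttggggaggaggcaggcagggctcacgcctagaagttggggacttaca
The first 4 promoters hold 2 matches each and that of Igtp 1. The table has another promoter of Gbp3 (chr3:142560106-142560405, plus strand), which holds 0. The difference was -1.52 for Ifit1, -0.87 for Ifit3, -0.78 for Bst2, -0.83 for Gbp3 and -1.70 for Igtp, with no order by the number of matches. For comparison, the ETS motif CCGGAAG was in 6.29% of promoters of genes that fell, 11.4% of those that rose and 14% of those tested. Further motifs were searched, and some were also commoner among falls than among those tested. Some excess there was thus not limited to the interferon motif, though its ratio to the tested share was the largest. Among them, the AP-1 site was in 10.1% of falls, 8.31% of rises and 6.45% of those tested. The E-box was in 76.2%, 67.7% and 66.5%. The gamma-activated site, another interferon motif, was in 7.34%, 4% and 6.97%, so its share among falls was close to that among those tested. These shares were not tested.

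Of 10 MHC class II genes, 6 fell in mutants over both diets. H2-Aa, the alpha chain of I-A, measured 11.58 and 12.61 in wild type and 10.39, 10.53 and 10.42 in mutants on normal diet, and 11.50 and 11.51 in wild type and 9.66 and 9.82 in mutants on high-fat diet. H2-Ab1, its beta chain, measured 10.79 and 11.93 in wild type and 9.36, 9.63 and 9.38 in mutants on normal diet, and 10.83 and 10.93 in wild type and 9.38 and 9.08 in mutants on high-fat diet. Cd74, the invariant chain that guides class II molecules, measured 11.74 and 12.59 in wild type and 10.42, 10.78 and 10.42 in mutants on normal diet, and 12.004 and 11.96 in wild type and 11.05 and 10.58 in mutants on high-fat diet. For each of the 3 every mutant array was below every wild-type array. H2-Aa fell by 1.70 (adjusted p = 0.00106), H2-Ab1 by 1.79 (adjusted p = 0.0018) and Cd74 by 1.41 (adjusted p = 0.00348). The peptide-loading subunit H2-DMa (-1.87 ± 0.26, adjusted p = 0.00476), the beta chain H2-Eb1 (-1.26 ± 0.17, adjusted p = 0.00432) and Ciita, the master activator of class II genes (-1.07 ± 0.19, adjusted p = 0.0152), fell with them. All 10 genes had negative differences, and the median was -1.16. The number that fell was 6 or 7 without any 1 array, but with all 13 arrays none was called (limma), 9 of the 10 had an unadjusted p under 0.05, and the median was -0.84. Of 18 genes of the immunoproteasome and MHC class I, 1 was called, against 4.63% of all genes, and the list median was -0.26. This was Psmb8, which fell (-1.11 ± 0.23, adjusted p = 0.0269). Its call held in 3 of the 9 fits that each left out 1 array (highest adjusted p = 0.0708), the highest without mutant high-fat array 2.

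Of 29 macrophage and dendritic cell genes, 18 fell and none rose, with a median of -0.67. Lyz2, the lysozyme of macrophages, measured 10.86 and 10.66 in wild type and 9.29, 9.40 and 8.94 in mutants on normal diet, and 10.50 and 10.43 in wild type and 9.46 and 8.29 in mutants on high-fat diet. Tyrobp, a signalling adaptor of myeloid cells, measured 8.69 and 8.44 in wild type and 7.48, 7.51 and 7.44 in mutants on normal diet, and 8.29 and 8.03 in wild type and 7.39 and 6.71 in mutants on high-fat diet. Both were lower in every mutant than in any wild-type array, by -1.57 ± 0.20, adjusted p = 0.00342 and -1.1 ± 0.13, adjusted p = 0.00293. Lyz2 and Lyz1 are near-identical copies whose probes can share signal. The complement chains C1qa (-0.96 ± 0.14, adjusted p = 0.00689), C1qb (-0.90 ± 0.15) and C1qc (-0.93 ± 0.17), the growth factor receptor Csf1r (-0.85 ± 0.18), the integrin Itgax (-0.83 ± 0.10, adjusted p = 0.00315), the pore-forming Mpeg1 (-0.98 ± 0.13, adjusted p = 0.00432) and the adaptor Fcer1g (-1.13 ± 0.18, adjusted p = 0.00967) fell. Adgre1, the F4/80 antigen of macrophages, did not pass (-0.30 ± 0.14, adjusted p = 0.288), nor did Cx3cr1 (-0.07 ± 0.10) or Itgam (0.07 ± 0.14), which was dim. The list's mean level measured 7.16 and 7.01 in wild type and 6.54, 6.65 and 6.52 in mutants on normal diet, and 7.15 and 6.98 in wild type and 6.65 and 6.29 in mutants on high-fat diet. No mutant array reached a wild-type one. Between 12 and 17 fell without any 1 array, and the number was 12 without wild-type high-fat array 1 or wild-type normal-diet array 1.

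Of 30 genes of T cells and intraepithelial lymphocytes, 9 fell and none rose (median -0.35). Cd3g, a chain of the T cell receptor complex, measured 6.93 and 7.27 in wild type and 5.97, 6.16 and 5.91 in mutants on normal diet, and 6.41 and 5.80 in wild type and 5.54 and 5.10 in mutants on high-fat diet. On high-fat diet the groups were closer than on normal diet, and they did not overlap (-0.95 ± 0.16, adjusted p = 0.0101). Cd3d (-0.87 ± 0.16, adjusted p = 0.0148), the chemokine Ccl5 (-0.96 ± 0.16, adjusted p = 0.0118), the cytotoxic granule protein Nkg7 (-0.86 ± 0.16, adjusted p = 0.0169) and granzyme Gzma (-1.06 ± 0.23) fell, and Cd3e (-0.33 ± 0.12), Cd4 (-0.20 ± 0.12) and Cd8a (-0.47 ± 0.12) did not pass. The number was 4 to 9 without any 1 array, being 4 without mutant high-fat array 2 or mutant normal-diet array 1 or 3, and 5 without wild-type high-fat array 1 or either wild-type normal-diet array. Of 19 B and plasma cell genes, 1 was called, against 4.63% of all genes. This was Cd79b, which fell (-0.89 ± 0.20, adjusted p = 0.0382), by -1.22 on normal and -0.49 on high-fat diet. Its call held in 1 of the 9 fits that each left out 1 array (highest adjusted p = 0.103), the highest without mutant high-fat array 2. Of 19 granulocyte and mast cell genes, Kit fell (-0.46 ± 0.11, adjusted p = 0.0389), 1 of 19 against 4.63% of all genes. Its call held in 1 of the 9 fits that each left out 1 array (highest adjusted p = 0.103), the highest without wild-type high-fat array 1, and its other probe set, at a similar level, had a difference of 0.15. Whether the myeloid, lymphoid, class II and interferon lists fell through the same cells was not tested.

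**Figure D4:**
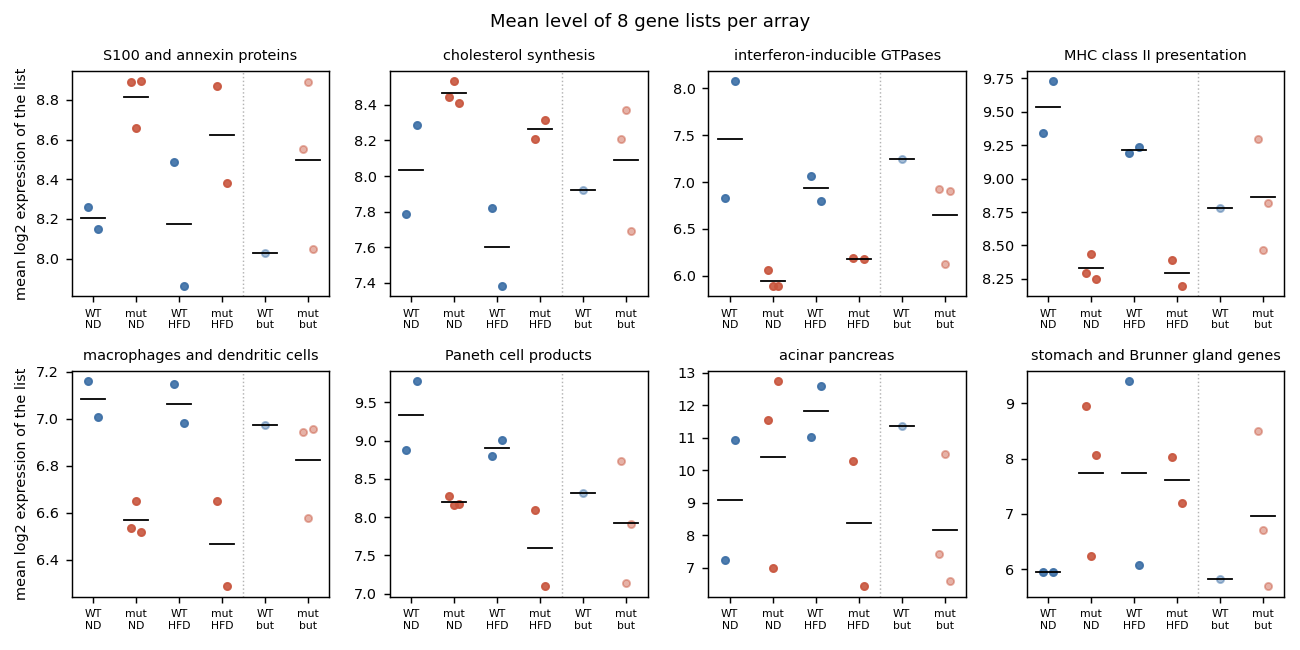
Mean level (log2 RMA, y axes starting above 0) of the genes of 8 lists on each array, 1 point per array, wild type (WT) in blue and mutant (mut) in red, with the mean of each group as a black line and butyrate (but) arrays to the right of the dotted line. GTPase, MHC class II, macrophage and Paneth cell levels are lower on all 5 mutant arrays than on all 4 wild-type arrays without butyrate. Acinar pancreas runs from 6.43 to 12.74 and stomach and Brunner gland genes from 5.69 to 9.40, with overlap between genotypes over the 2 diets. Within a diet, stomach and Brunner gland means are higher in all mutants on normal diet, and acinar means lower in all mutants on high-fat diet.

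Crypt, stromal and other lists held from 0 to 5 calls each. For some of them this was a larger share than the 4.63% of all genes, for others a smaller one. Lgr5, the receptor that marks crypt stem cells, measured 5.93 and 5.88 in wild type and 5.07, 4.94 and 4.69 in mutants on normal diet, and 6.29 and 6.68 in wild type and 5.34 and 5.02 in mutants on high-fat diet. All mutants were below all wild-type arrays (-1.14 ± 0.13, adjusted p = 0.00252). Lgr5 and Ascl2 were the calls among 21 crypt stem cell and Wnt target genes (median -0.18), and Axin2 had a difference of -0.26 ± 0.11 (adjusted p = 0.244). None of 29 proliferation genes passed (median -0.07). Of 30 fibroblast and matrix genes, 4 fell, namely Col3a1 (-0.70 ± 0.12, adjusted p = 0.0128), Mmp10 (-0.55 ± 0.11), Mmp13 (-0.64 ± 0.13) and Mmp2 (-0.59 ± 0.13), with a list median of -0.10. Without mutant high-fat array 2 or mutant normal-diet array 1 the number was 1, and without wild-type high-fat array 2 or mutant normal-diet array 2 or 3 it was 2, and without wild-type normal-diet array 2 it was 6. Among 41 Wnt, Notch, Hedgehog and BMP genes, Bmpr1a (0.35 ± 0.07) and Tgfbr2 (0.40 ± 0.10) rose and Notch1 (-0.53 ± 0.10), Tgfb1 (-0.57 ± 0.13) and Shh (-0.39 ± 0.09) fell. Without wild-type high-fat array 1 none of these 41 was called (limma), and 8 had an unadjusted p under 0.05. Without any other 1 array 0 to 2 rose and 0 to 3 fell, and none rose without array 2 of wild type on high-fat diet, mutant high-fat array 1 or mutant normal-diet array 1, and none fell without mutant high-fat array 2 or mutant normal-diet array 3. Of 20 genes of the unfolded protein response, Creld2 (-0.56 ± 0.11) and Hsp90b1 (-0.35 ± 0.08) fell. No gene passed among 12 of smooth muscle (median -0.06), 14 of endothelium (-0.06), 13 of enteric neurons and glia (-0.01), 12 of heat shock (-0.04), 8 of calcium absorption (0.06) or 15 of vitamin A (-0.01). Rps4l, a ribosomal protein S4 paralogue, measured 7.41 and 7.32 in wild type and 5.72, 5.41 and 5.71 in mutants on normal diet, and 6.35 and 7.22 in wild type and 4.64 and 4.25 in mutants on high-fat diet. It fell by 2.02 (adjusted p = 0.00106), and none of the other 17 ribosomal protein genes passed. The adaptor Tifa (-1.87 ± 0.36, adjusted p = 0.0196), the antitrypsin Serpina1c (-1.80 ± 0.33, adjusted p = 0.0152) and the RNA-cleavage factor subunit Cstf2t (-1.58 ± 0.17, adjusted p = 0.00166) were among the 20 largest falls.

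The 4 butyrate arrays, which the comparison did not use, were read for direction. With 1 wild-type and 3 mutant arrays, and the wild-type array assumed to vary like the others, limma called 0 genes there, and 749 had an unadjusted p under 0.05 (6.04%). Of the 574 genes called without butyrate, 412 had the same direction on butyrate (71.8%), against 54.6% of all genes. Among the 278 rises it was 186 (66.9%), with a median difference there of 0.09, against 51.5% of all genes with a positive difference. Among the 296 falls it was 226 (76.4%), with a median of -0.23, against 58.2% of all with a negative one. Over the 278 rises, the median difference from the wild-type butyrate array was -0.03, 0.35 and -0.04 on mutant arrays 1, 2 and 3. Over the 296 falls it was 0, -0.61 and -0.03. Mutant array 2 thus carried most of the shift, and these shares do not stand for all 3 mutant arrays alike. Tcf23 measured 4.78 on the wild-type array and 5.26, 8.49 and 4.85 on mutant arrays 1, 2 and 3, and Slit2 5.42 on the wild-type array and 5.72, 8.49 and 5.84 on mutant arrays 1, 2 and 3. Array 2 was at the level of mutants without butyrate, and arrays 1 and 3 were near wild type. Pipox measured 8.76 on the wild-type array and 8.79, 6.53 and 8.73 on mutant arrays 1, 2 and 3, with the same arrangement. Members of some lists kept their direction and others did not. All 7 S100 and annexin genes, all 5 GTPases and all 6 transporters had the same direction on butyrate, as did 14 of 18 macrophage genes, but 1 of 6 MHC class II and 1 of 9 T cell genes did. For both of these last lists the 1 wild-type butyrate array was below the 4 wild-type arrays without butyrate in mean level. Its class II mean was 8.78 against 9.195 to 9.73, and its T cell mean 5.68 against 5.77 to 6.22. Mutant butyrate arrays 1, 2 and 3 had class II means of 9.29, 8.47 and 8.82 and T cell means of 6.12, 5.49 and 5.90. These directions thus rest on that 1 wild-type array. Cd74 differed by 0.63 on butyrate and H2-Aa by 0.22. Of the 3 mutant arrays, array 1 was the highest for Cd74, which measured 10.64 on the wild-type array and 12.12, 10.63 and 11.06 on mutant arrays 1, 2 and 3. Whether the labels of mutant butyrate arrays 1 and 3 are right was not tested, and each difference and direction given for butyrate takes them as labelled.

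**Figure D5:**
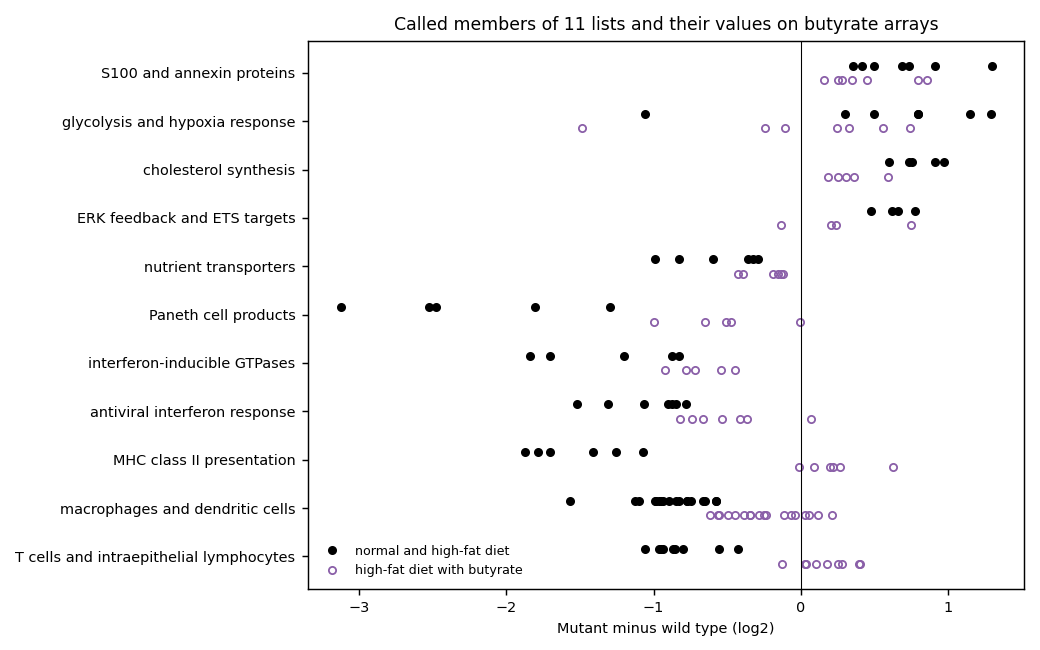
Mutant minus wild-type difference (log2, x axis) of the called members of 11 lists over normal and high-fat diet (filled black) and of the same genes on the butyrate arrays (open purple, 3 mutant and 1 wild-type array). Falls of MHC class II and T cell genes lie at or above 0 on butyrate for all but 1 gene of each list, whereas those of GTPases and transporters stay below 0. In mean level of the MHC class II and T cell lists, the 1 wild-type butyrate array was below every wild-type array without butyrate.

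Other probe sets of the called genes, which the choice of 1 probe set per gene left out, mostly had the same direction. There were 388 for 238 of the genes, and 361 agreed in direction (93.0%), against 67.6% over all genes. They measure the same RNA as the probe set that was tested. H2-Ab1 had 2 others, and Car4 another with a difference of -1.81. Slit2 had another that was dim and differed by 0.65. Spred2 had another with a difference of -0.03, also dimmer than the one tested.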

How the data were processed

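The authors deposited log2 intensities made with Affymetrix Expression Console 1.1 by RMA, per the submitters' processing notes. RMA corrects background, makes the arrays' distributions equal and summarises probes into probe sets, so a change in total RNA per cell would not be seen. Per the labels, 200 ng of total RNA was labelled with a whole-transcript kit, but the probe sets carry names of a 3' array. Their genome build was not given in the sources read. Of 22690 probe sets, 64 controls, 691 with several symbols and 1555 with none were left out, and for each of 12393 genes the one with the highest mean over 13 arrays was tested. The gene that was mutated is not reported here.

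The main fit (R 4.3.3, limma 3.58.1, lmFit and eBayes with intensity trend, two-sided) had terms for diet and genotype and 6 residual degrees of freedom. Diet differences, interaction and butyrate used models of group means. The deposited array names fall in a separate number range for each diet, so diet also carries the array series. The arrays of wild-type and mutant high-fat replicate 2 share a number whose meaning is not given. The design text calls the samples mice, nothing else shows that replicates are separate animals, so p-values hold for the spread of these samples. No pair of arrays was a copy. The number of arrays limits the precision. Members, 62 gene lists and tests were chosen with earlier results of these data known. Genes were named by rule: the 20 largest rises and falls whose groups did not overlap within a diet, up to 4 called members of each list with the smallest p, and interaction genes. Other members given are for completeness of their list. The fits were tested on simulated data, in which genes varied independently. For log2 differences of 0.5, 1 and 2, the main fit recovered 47.8%, 89.6% and 95.5%, with 8 false calls. For such differences on high-fat arrays only, the interaction test recovered 1.49%, 38.8% and 83.3%, with 2 false calls. The 2 genes called for the interaction therefore do not show that the effects of other genes were equal on both diets.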

Additional observations from a re-analysis of the deposited data

Results flagged for a closer look

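For 2 genes the genotype difference differed between the diets by the interaction test (limma, adjusted over all genes). St3gal4, a sialyltransferase, measured 12.09 and 12.28 in wild type and 11.93, 12.11 and 12.06 in mutants on normal diet, and 5.97 and 6.44 in wild type and 11.10 and 11.10 in mutants on high-fat diet. The 2 wild-type high-fat arrays were low and the other 7 were high. Its genotype difference was -0.15 with normal diet against 4.89 with high-fat diet, and the gap between these was 5.05 (95% interval 4.59 to 5.5), adjusted p = 1.08e-05. On butyrate it measured 12.13 on the wild-type array and 11.86, 11.89 and 12.09 on mutant arrays 1, 2 and 3. Myo7a, an unconventional myosin, measured 8.71 and 8.47 in wild type and 8.51, 8.48 and 8.36 in mutants on normal diet, and 8.19 and 8.36 in wild type and 6.40 and 6.29 in mutants on high-fat diet. The 2 mutant high-fat arrays were low. Its difference was -0.14 on normal and -1.93 on high-fat diet, which differed by -1.79 (95% interval -2.18 to -1.40), adjusted p = 0.0131.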

How the results depend on the processing

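The count of 574 genes lay between 492 and 647 with quantile normalization, dim genes left out, the mean of probe sets, no intensity trend, array weights, diets weighted equally or the acinar list mean as a covariate. With all 13 arrays it was 127, of which 116 were among the 574. With the stomach list mean as a covariate it was 347, and with a 2-fold minimum 75, both chosen after seeing the data. With that covariate 1 of 20 transporters and 2 of 12 brush border genes fell. Of cholesterol genes 2 of 18 rose, of iron genes 1 of 15, and of 18 ERK genes 1 rose and 1 fell. For 6 of 10 MHC class II and 5 of 11 Paneth cell genes the fall remained. An unadjusted p under 0.05 (limma) was reached by 12 of the 20 transporters and 13 of the 18 cholesterol genes. Without 1 array it ran from 265 to 582. Of 128 called genes named by rule, none changed sign in any setting. Genes whose effect differed between diets numbered 1 with all 13 arrays or the acinar covariate, and 1 to 14 without 1 array (14 without wild-type normal-diet array 2, 10 without array 1, 6 without mutant high-fat array 2, 1 without any 1 mutant normal-diet array). The 106 genes called on high-fat diet were 62 without the intensity trend. The cause of these shifts was not tested. Same-numbered arrays did not deviate together (r = -0.24 and -0.33 on normal diet, 0.01 on high-fat diet). In a group of 2 arrays the deviations from the mean mirror each other, so this check cannot decide whether the numbers mark pairs. With the number as a replicate block 250 genes were called, 237 of them among the 574.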

Other observations

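Some called genes were neighbours. In the RefSeq order of GRCm38.p6, 12375 genes were placed, and windows of 8 measured genes with at least 4 called in 1 direction joined into 6 runs. These genes were chosen after their values were seen, and neighbours of 1 family can share probe signal. In 1 run S100a1, S100a13, S100a14, S100a16, S100a5 and S100a6 rose, 6 of 8 genes. S100a5, not in the S100 list above, measured 4.41 and 4.58 in wild type and 5.55, 5.20 and 5.30 in mutants on normal diet, and 4.13 and 4.35 in wild type and 5.0 and 4.84 in mutants on high-fat diet. Its mutant arrays lay above all wild-type arrays, by 0.78 ± 0.11, adjusted p = 0.00533. In the same run S100a4 (-0.30 ± 0.17) and S100a3 (-0.18 ± 0.18) did not pass.

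The other 5 runs held falls. Slfn8, Slfn2, Ccl5, Ccl9 and Ccl6 were 5 of 9 neighbours, of which Slfn2, a schlafen protein of immune cells, fell by 1.01 and the chemokine Ccl6 by 1.13. H2-DMa, Psmb8, H2-Ab1, H2-Aa, H2-Eb1 and Gpsm3 were 6 of 12. Gimap4, Gimap6, Gimap7 and Tmem176b were 4 of 6, and Gimap7, a GTPase of lymphocytes, measured 7.0 and 7.0 in wild type and 5.74, 5.79 and 5.83 in mutants on normal diet, and 6.52 and 5.93 in wild type and 5.50 and 4.84 in mutants on high-fat diet. The groups did not overlap within a diet, and the fall was -1.14 ± 0.15, adjusted p = 0.00433. AW112010, Ms4a7, Ms4a4b, Ms4a6b and Ms4a6d were 5 of 10, and Gbp7, Gbp3, Gbp2b and Kyat3 were 4 of 5. Of 50 pairs of direct neighbours with both genes called, 39 had the same direction.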
